A study of Mus musculus with 9 samples.

Results

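The hepatocyte microRNAs miR-122 and miR-802 were followed through 9 mouse liver small-RNA libraries. They were found by name in a deposited table of 946 mature miRNA rows. All 5 rows sought were present: mmu-miR-122-5p, mmu-miR-122-3p, mmu-miR-122b-3p, mmu-miR-802-5p and mmu-miR-802-3p, written without the species prefix from here on. The miR-122b-3p row repeats the reads of miR-122-5p, so the 5 rows stand for 4 distinct miRNAs, and all of them passed the filter on low counts that left 360 rows for testing.

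MicroRNAs are short RNAs that guide Argonaute proteins to messenger RNAs and repress them. Each is cut from a hairpin with a 5p and a 3p arm, and usually the arm kept in Argonaute (the guide) far outnumbers the other (the passenger). miR-122 is the signature miRNA of hepatocytes, where it sustains cholesterol and fatty acid metabolism, and it is released into blood when hepatocytes die, which makes it a circulating marker of acetaminophen injury. miR-802 is enriched in liver and is known in mice for impairing glucose metabolism in obesity.

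All animals were wild-type C57 BL6 mice aged 8 weeks, and each group held 3 libraries of total liver RNA. The dmPGE2+APAP mice were given 300 µg/kg dmPGE2, a methylated prostaglandin E2 analog, into the peritoneum 1 h before 500 mg/kg acetaminophen (APAP). The APAP mice were given 500 mg/kg APAP alone by the same route, and the Control mice were given saline. Livers were taken 6 h after APAP, so the comparisons ask how the injury, and the prostaglandin before it, changed liver miRNAs. A vehicle for dmPGE2 is not stated in the labels, nor is a group that had dmPGE2 without APAP. Whether the libraries of a group came from different mice is also unstated, so the p-values reflect library-to-library spread alone, part of which could be technical.

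Summed over all table rows, libraries held between 1038799 and 10483460 reads, with the shallowest in dmPGE2+APAP (replicate 2) and the deepest in Control. These sums include the rows that repeat the reads of another row, such as miR-122b-3p. In whole liver, fewer hepatocytes and less of a miRNA per hepatocyte cannot be told apart. The tissue label was borne out by the table, in which miR-122-5p ranked first or second in every library.

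The mature miR-802 arms and their hairpin are shown because both arms were counted at similar levels. Sequences are from RefSeq on GRCm38.p6, matched for 2 of the 5 rows, and read 5′ to 3′. Capitals mark the seed (bases 2 to 8) in the mature arms.
miR-802-5p: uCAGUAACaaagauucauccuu
miR-802-3p: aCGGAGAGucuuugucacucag
In the hairpin of 97 bases, which lies on the plus strand at chr16:93369720-93369816, capitals mark the 2 arms.
mir-802 hairpin: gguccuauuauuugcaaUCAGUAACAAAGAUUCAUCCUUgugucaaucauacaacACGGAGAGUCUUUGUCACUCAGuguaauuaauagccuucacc
The arms are 22 bases each, at 93369737 to 93369758 and 93369775 to 93369796, with a loop of 16 bases between them. In the minimum free energy fold of RNAfold, 16 bases of the 5p arm were paired with the 3p arm. The hairpin overlapped 0 other genes of the RefSeq gene table, and its nearest neighbours were 1810053B23Rik, 10176 bases before it, and 1700029J03Rik, 26998 bases after it. Of the other mature mouse miRNAs in the sequence table, which held 1679 in all, 0 shared the seed of either arm, so miR-802-5p and miR-802-3p stand outside any seed family there. miR-122-5p, miR-122-3p and miR-122b-3p are named only.

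miR-122-5p, the guide arm, took 16.1% to 24.5% of table reads, repeated rows included, and the groups overlapped. It held 21.5%, 20.1% and 19.0% of table reads in dmPGE2+APAP replicates 1, 2 and 3. The shares were 19.4%, 18.9% and 18.7% in APAP, and 16.1%, 24.5% and 18.3% in Control. The Control libraries thus held both the lowest and the highest share, and the other groups lay between them. Counting error was negligible, the widest exact (Clopper-Pearson) 95% interval running from 20.0% to 20.2% in the shallowest library. Group means were 20.2% ± 1.24 in dmPGE2+APAP, 19.0% ± 0.359 in APAP and 19.6% ± 4.32 in Control (SD, n = 3 each). An exact two-sided permutation test over libraries gave p = 1 for APAP against Control, 0.2 for dmPGE2+APAP against APAP and 0.9 for dmPGE2+APAP against Control, where 3 against 3 libraries cannot go below 0.1.

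The miR-122b-3p row differed from miR-122-5p by 10 to 213 reads per library, at most 0.0174% of the row. All 59 bases of the mir-122b hairpin lie within the mir-122 hairpin of 66 bases in RefSeq, and without a stated strand setting their reads cannot be told apart. With such repeated rows counted once, miR-122-5p held 19.4% to 32.5% of reads, both extremes in Control. It averaged 25.4% ± 1.95 of reads in dmPGE2+APAP, 23.6% ± 0.542 in APAP and 24.8% ± 6.87 in Control (SD, n = 3 each). It was then the most abundant miRNA in 5 of 9 libraries (all 3 of dmPGE2+APAP, APAP replicate 3 and Control replicate 2) and second to miR-21a-5p in the other 4.

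Levels are given from here as CPM, the standard depth-scaled count, with library totals adjusted by edgeR's TMM factors, which have no length term. miR-122-5p stood at 212175, 178007 and 183651 CPM in dmPGE2+APAP, 184541, 195540 and 157839 CPM in APAP, and 179856, 323931 and 176792 CPM in Control. Control replicate 2 was far above the other 8 libraries, which lay within 157839 to 212175 CPM. It also had the smallest TMM factor, 0.756 against 0.898 to 1.19 elsewhere, so its CPM is raised further than its share of reads. The other arm of the overlapping hairpin, miR-122b-5p, has a row of its own, chosen for mention after its values were seen. It averaged 60.4 ± 10.2 CPM in dmPGE2+APAP, 56.3 ± 15.3 CPM in APAP and 44.5 ± 7.63 CPM in Control (SD, n = 3 each). The groups overlapped, at 51.6, 71.6 and 58.1 CPM in dmPGE2+APAP, 48.4, 46.6 and 73.9 CPM in APAP, and 39.6, 40.5 and 53.2 CPM in Control.

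miR-122-3p, the passenger arm, was present at a small fraction of the guide. It stood at 306, 249.7 and 259 CPM in dmPGE2+APAP, 265, 268 and 259 CPM in APAP, and 223, 309 and 416 CPM in Control. Here Control replicate 3, not replicate 2, was the highest library, and Control replicate 1 the lowest. The APAP libraries lay within each other's counting intervals, and both treated groups lay within the range of Control.

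miR-802 was scarce in these livers. miR-802-5p had 45, 6 and 42 reads in dmPGE2+APAP, 53, 75 and 29 in APAP, and 36, 67 and 100 in Control. In CPM this was 6.36, 5.11 and 8.59 in dmPGE2+APAP, 7.63, 10.3 and 6.94 in APAP, and 5.28, 9.10 and 9.21 in Control. The groups overlapped, and the exact Poisson 95% interval of the shallowest library, 1.88 to 11.1 CPM, took in the values of all others. By mean CPM miR-802-5p was 219th and miR-802-3p 213th of 347 tested rows with repeats counted once, against first for miR-122-5p and 61st for miR-122-3p.

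miR-802-3p had 38, 24 and 44 reads in dmPGE2+APAP, 41, 57 and 28 in APAP, and 52, 69 and 56 in Control. In CPM this was 5.37, 20.5 and 8.996 in dmPGE2+APAP, 5.90, 7.81 and 6.70 in APAP, and 7.63, 9.38 and 5.16 in Control. dmPGE2+APAP replicate 2 stood apart, its Poisson interval of 13.1 to 30.4 CPM lying above the intervals of the other 8 libraries, the highest of which reached 12.1 CPM. That library was the shallowest, and it held the highest CPM for 52 of the 190 tested rows under 20 CPM (27.4%), more than any other library. Its part in the miR-802-3p value was not tested. These intervals cover counting error only, since PCR copies are not independent molecules.

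**Figure D1:**
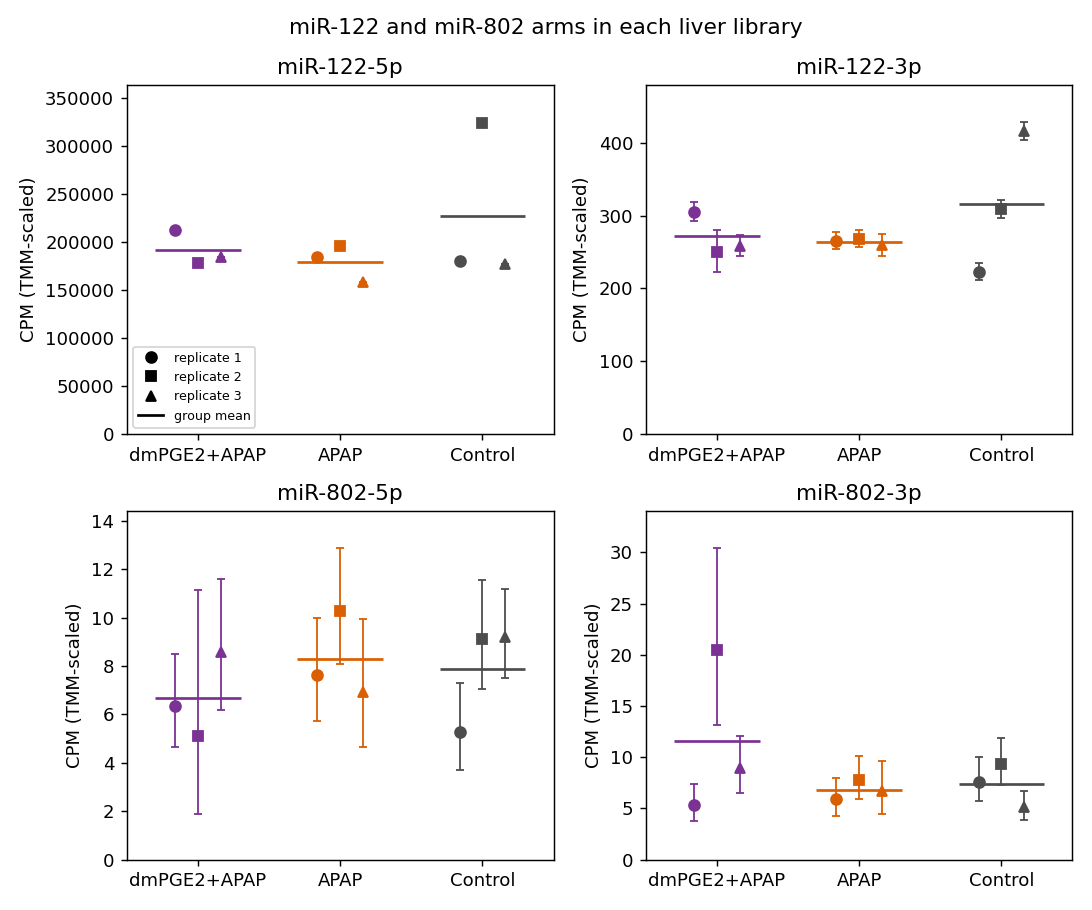
TMM-scaled CPM (y axis, from 0) of the 4 distinct miRNAs in each library, grouped as dmPGE2+APAP, APAP and Control; symbols are replicates, horizontal lines are group means and bars are exact Poisson 95% intervals. Control replicate 2 is highest for miR-122-5p (323931 CPM), Control replicate 3 for miR-122-3p (416 CPM), and dmPGE2+APAP replicate 2 for miR-802-3p (20.5 CPM).

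The order of the 4 levels was the same in every group for the first places: miR-122-5p, then miR-122-3p, then both miR-802 arms. The arms of miR-802 averaged 6.69 ± 1.76 CPM for 5p and 11.6 ± 7.87 CPM for 3p in dmPGE2+APAP, 8.28 ± 1.76 and 6.80 ± 0.957 CPM in APAP, and 7.87 ± 2.24 and 7.39 ± 2.12 CPM in Control (SD, n = 3 each). Both arms were counted in the same libraries, and 5p was not tested against 3p within a group. Ligation in small-RNA library construction favours some ends over others, so levels of different miRNAs compare only approximately.

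None of the members was called in the comparison of APAP with Control (0 of 4), where edgeR called 3 of 360 rows (0.833%). Of the 4 members, 0 had an unadjusted p under 0.05 in this or the other comparisons, where 9.72% of rows did for APAP against Control, 6.39% for dmPGE2+APAP against APAP and 10.6% for dmPGE2+APAP against Control. DESeq2 and limma-voom called 0 of the 4 as well. miR-122-5p averaged 179307 ± 19388 CPM in APAP and 226860 ± 84080 CPM in Control (SD, n = 3 each). Its log2 change was -0.34 (SE 0.23), a fold of 0.790 with a 95% interval of 0.562 to 1.11 and a Benjamini-Hochberg adjusted p of 0.618 (edgeR, quasi-likelihood). miR-122-3p averaged 264 ± 4.70 CPM in APAP and 316 ± 96.6 CPM in Control, with a log2 change of -0.26 (SE 0.22, 95% interval -0.73 to 0.22, edgeR adjusted p 0.701).

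These values rested on single Control libraries and on the scaling. Without Control replicate 2, miR-122-5p stood at 0.02 (edgeR adjusted p 0.963), and without Control replicate 3, miR-122-3p stood at 0.02 (0.992). With library totals in place of TMM they were -0.05 and -0.03, and the median of all rows moved to 0.20, against -0.05 with TMM. miR-802-5p stood at 0.08 (SE 0.32, 95% interval -0.60 to 0.75) and miR-802-3p at -0.11 (SE 0.40, 95% interval -0.96 to 0.75), with edgeR adjusted p of 0.955 and 0.9496. The 95% intervals of the fold ran from 0.660 to 1.68 for miR-802-5p and from 0.513 to 1.68 for miR-802-3p.

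**Figure D2:**
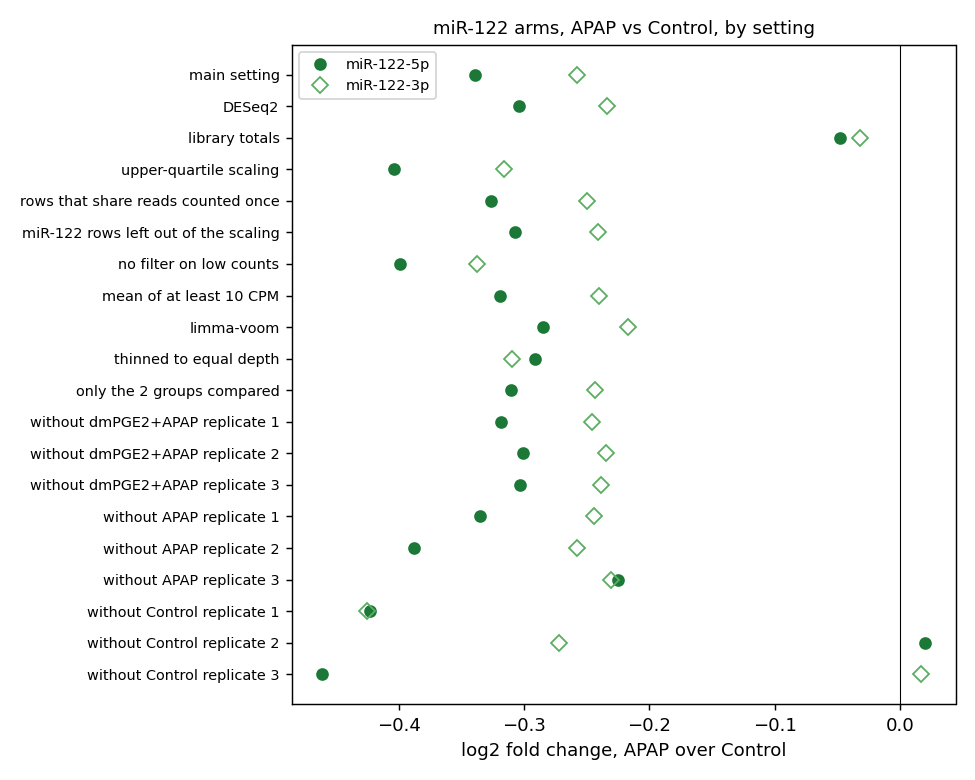
Log2 fold change of APAP over Control (x axis) for miR-122-5p (filled circles) and miR-122-3p (open diamonds) under each processing setting (rows). Values lie between -0.46 and 0.02, those near 0 coming from library totals and the omission of Control replicate 2 (miR-122-5p) or Control replicate 3 (miR-122-3p).

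The comparison of dmPGE2+APAP with APAP asked whether the prostaglandin altered the miRNAs after injury, and 0 of 4 members were called, where edgeR called 1 of 360 rows (0.278%). miR-122-5p averaged 191278 ± 18317 CPM in dmPGE2+APAP and 179307 ± 19388 CPM in APAP (SD, n = 3 each), a log2 change of 0.09 (SE 0.23) with a 95% interval of -0.40 to 0.59 and an edgeR adjusted p of 0.960. On the linear scale this interval ran from 0.758 to 1.501 times the APAP level. miR-122-3p stood at 0.04 (SE 0.23, 95% interval -0.44 to 0.52). miR-802-5p stood at -0.26 (SE 0.34, 95% interval -0.98 to 0.46). miR-802-3p stood at 0.59 (SE 0.43, 95% interval -0.31 to 1.49, edgeR adjusted p 0.896). It moved both ways with single libraries, to 0.10 without dmPGE2+APAP replicate 2 (edgeR adjusted p 0.989) and to 1.00 without dmPGE2+APAP replicate 1 (0.368).

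Against Control, dmPGE2+APAP livers also had 0 of 4 members called, where edgeR called 1 of 360 rows (0.278%). This comparison shares libraries with both others. miR-122-5p averaged 191278 ± 18317 CPM in dmPGE2+APAP and 226860 ± 84080 CPM in Control, a log2 change of -0.25 (SE 0.23, 95% interval -0.74 to 0.25, edgeR adjusted p 0.675). It turned to 0.04 with library totals and to 0.16 without Control replicate 2. With library totals the median of all rows moved to 0.19, against -0.03 with TMM. miR-122-3p stood at -0.22 (SE 0.22), and at 0.07 without Control replicate 3. miR-802-5p stood at -0.19 (SE 0.33) and miR-802-3p at 0.48 (SE 0.42). The miR-802-3p value was 0.02 without dmPGE2+APAP replicate 2 (edgeR adjusted p 0.9899) and 0.90 without dmPGE2+APAP replicate 1 (0.303).

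In each of these comparisons the groups overlapped for every member (0 of 4 without overlap), where 16.7% of tested rows did not overlap between APAP and Control, 13.9% between dmPGE2+APAP and APAP, and 14.7% between dmPGE2+APAP and Control.

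**Figure D3:**
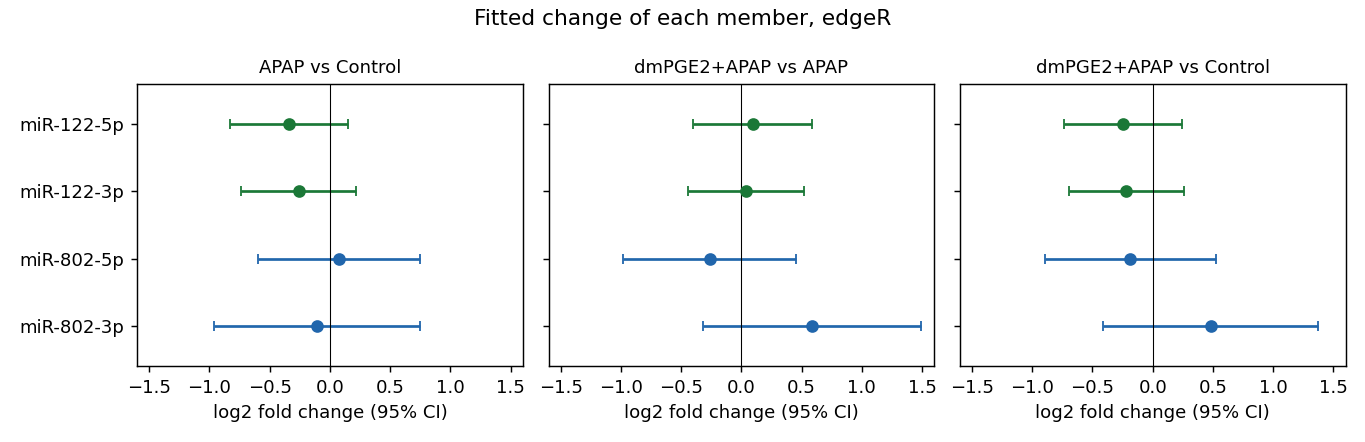
Fitted log2 fold change (points) with 95% interval (bars) of each member in the 3 comparisons, first-named group over second, from edgeR's fit of all 9 libraries. Every interval crosses 0, and those of the miR-802 arms are wider than those of miR-122.

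The ratio of the 2 arms of a hairpin within a library does not depend on library scaling. For miR-122 there were 694, 713 and 710 guide reads per passenger read in dmPGE2+APAP, 695, 728 and 609 in APAP, and 806, 1048 and 425 in Control. The treated libraries lay close together, and all 6 of them lay between the Control extremes. On the log2 scale the ratio was 9.46 ± 0.02 in dmPGE2+APAP, 9.40 ± 0.13 in APAP and 9.47 ± 0.67 in Control (SD, n = 3 each). The Control SD was larger than the median SD over the 98 hairpins tested, which was 0.44 in dmPGE2+APAP, 0.36 in APAP and 0.45 in Control, though 25 of the 98, miR-122 included, had a Control SD at least as large.

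For miR-802 neither arm was the more abundant in every library. The 3p arm held 45.8%, 80% and 51.2% of the reads of both arms in dmPGE2+APAP, 43.6%, 43.2% and 49.1% in APAP, and 59.1%, 50.7% and 35.9% in Control. Exact 95% intervals took in 50% in 7 of 9 libraries, the exceptions being dmPGE2+APAP replicate 2 and Control replicate 3, which lay on opposite sides. Averaged over libraries, the log2 ratio of 5p over 3p was -0.07 for miR-802, between the values of miR-5615 (-0.05) and miR-511 (-0.27). For miR-122 it was 9.44, between miR-26b (9.78) and let-7i (9.38), the fifth highest of 98.

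Arm ratios of the members did not pass the test in any comparison. limma called 0 of 98 hairpins for APAP against Control (0%, with 9 at an unadjusted p under 0.05), 0 for dmPGE2+APAP against APAP (0%, with 2), and 1 for dmPGE2+APAP against Control (1.02%). The log2 ratio of miR-122 differed by -0.07 (SE 0.33, limma adjusted p 0.900), 0.06 (0.962) and -0.01 (0.998) for APAP against Control, dmPGE2+APAP against APAP and dmPGE2+APAP against Control. The groups overlapped for both hairpins in each comparison, where 15.3%, 5.1% and 21.4% of hairpins did not overlap in that order. For miR-122 the differences from Control moved both ways with single Control libraries. Without Control replicate 3 they were -0.44 for APAP (limma adjusted p 0.367) and -0.38 for dmPGE2+APAP (0.364). Without Control replicate 2 they were 0.21 for APAP (0.828) and 0.27 for dmPGE2+APAP (0.677). The log2 ratio of miR-802 differed by 0.18 (SE 0.58, limma adjusted p 0.897), -0.85 (0.806) and -0.67 (0.603), and without dmPGE2+APAP replicate 2 the values against APAP and against Control were -0.18 and -8e-04, while without dmPGE2+APAP replicate 1 they were -1.26 and -1.08.

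**Figure D4:**
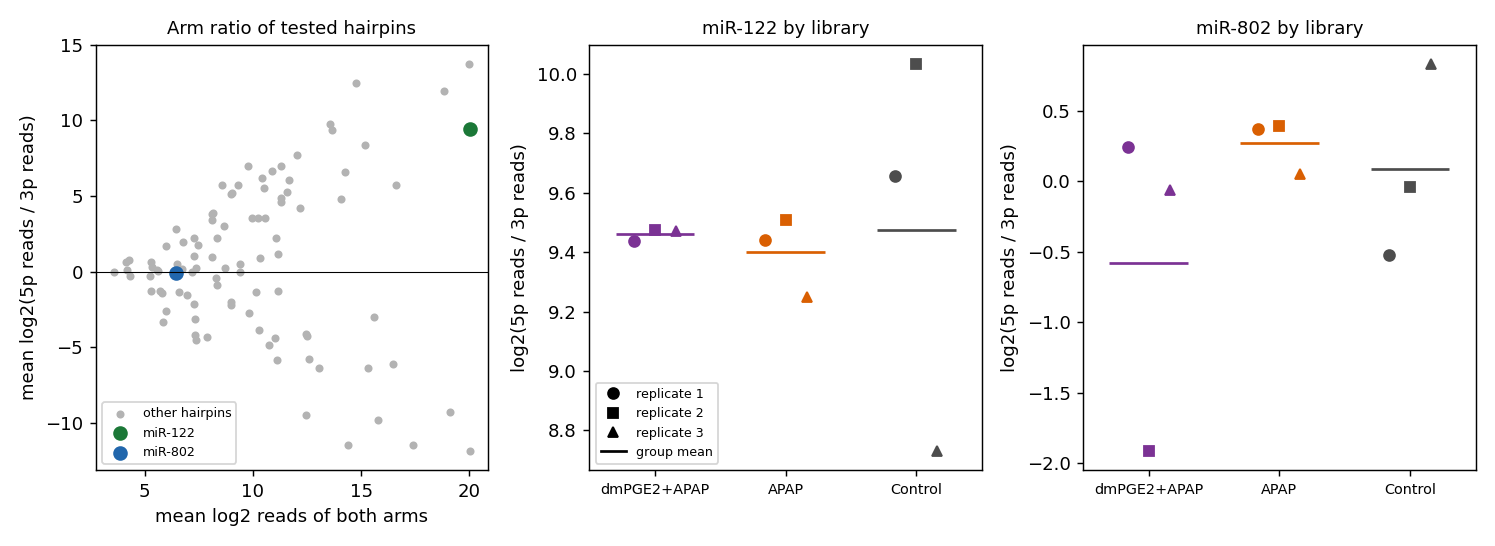
Left, mean log2 ratio of 5p to 3p reads (y axis) against mean log2 reads of both arms (x axis) for 98 hairpins, of which 5, mir-122b among them, have a row that repeats another row. Middle and right, the ratio in each library for miR-122 and miR-802 (symbols are replicates, lines are group means), with the dmPGE2+APAP and APAP libraries of miR-122 between 9.25 and 9.51 and those of Control between 8.73 and 10.03.

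The 5p arms of both miRNAs were set against each other within each library, which is also independent of scaling. miR-122-5p had 33349, 34815 and 21388 reads per read of miR-802-5p in dmPGE2+APAP, 24187, 19035 and 22759 in APAP, and 34052, 35581 and 19191 in Control. In log2 units the ratio was 14.83 ± 0.39 in dmPGE2+APAP, 14.42 ± 0.18 in APAP and 14.80 ± 0.50 in Control (SD, n = 3 each), and exact two-sided permutation tests gave p = 0.3 for APAP against Control, 0.3 for dmPGE2+APAP against APAP and 0.9 for dmPGE2+APAP against Control. The groups overlapped in each comparison.

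miR-122-5p varied more than the median of abundant miRNAs within Control, and less within dmPGE2+APAP and within APAP. The pooled within-group SD of its log2 CPM was 0.31, against a median of 0.26 over the 83 miRNAs of at least 100 CPM. By group the SD was 0.14 in dmPGE2+APAP, 0.16 in APAP and 0.50 in Control, where the same 83 miRNAs had medians of 0.22 in dmPGE2+APAP, 0.19 in APAP and 0.28 in Control. The SD of miR-122-3p was 0.16 in dmPGE2+APAP, 0.03 in APAP and 0.45 in Control. miR-802-3p had the widest pooled SD of the members, at 0.61, which came from dmPGE2+APAP (0.94).

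The miRNAs whose profile over the 9 libraries lay nearest to miR-122-5p were let-7d-5p, miR-26a-5p, miR-744-5p, miR-22-3p and miR-185-5p. Likeness was the root mean square difference between centred log2 CPM, which was 0.14, 0.15, 0.18, 0.18 and 0.21 for them, against a median of 0.36 over 81 candidates of at least 100 CPM. miR-22-3p and miR-26a-5p are abundant liver miRNAs, at 16421 and 21468 CPM. miR-26a-5p averaged 19683 ± 2262 CPM in dmPGE2+APAP, 20649 ± 2214 CPM in APAP and 24072 ± 3887 CPM in Control (SD, n = 3 each). Nearest to miR-802-5p were miR-1839-5p (0.19), miR-103-3p (0.28), let-7a-5p (0.29), let-7f-5p (0.29) and miR-181a-5p (0.30), where the median was 0.40. All these profiles share the same libraries and scaling factors.

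Of 12 other hepatocyte-enriched miRNAs listed, 12 were tested and edgeR called 0 in each comparison, as did DESeq2. Without the filter on low counts, edgeR called 1 of the 12 for dmPGE2+APAP against Control, where it called 2 of 946 rows. At an unadjusted p under 0.05 there were 1 for APAP against Control, 0 for dmPGE2+APAP against APAP and 3 for dmPGE2+APAP against Control. Of all tested rows, 9.72%, 6.39% and 10.6% were under 0.05 in that order. For APAP against Control, 9 of the 12 log2 changes were negative (median -0.14), and for dmPGE2+APAP against Control 10 of the 12 (median -0.12), where the medians of all rows were -0.05 and -0.03. With library totals these list medians turned to 0.11 and 0.13, with 4 of 12 below 0 in each. The medians of all rows moved as well, to 0.20 and 0.19, so the list medians stayed below them. For dmPGE2+APAP against APAP, 7 of 12 lay below 0, with a median of -0.05. The list included miR-192-5p, from a cluster that also gives miR-194, at 88528 ± 15152 CPM in dmPGE2+APAP, 75199 ± 7153 CPM in APAP and 90832 ± 17385 CPM in Control (SD, n = 3 each). miR-148a-3p, a regulator of hepatic lipid uptake, had 91653 ± 14651 CPM in dmPGE2+APAP, 97007 ± 11568 CPM in APAP and 128556 ± 27328 CPM in Control (SD, n = 3 each). By fitted change, not by level, miR-365-3p stood furthest from 0 in the list, for dmPGE2+APAP against Control. It had 20.9 ± 5.59 CPM in dmPGE2+APAP and 49.6 ± 18.9 CPM in Control, a log2 change of -1.25 (SE 0.36, edgeR adjusted p 0.206).

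Markers of other cell types were checked beside these values. The 4 red-cell rows summed to 352 to 379 CPM in dmPGE2+APAP, 731 to 1398 CPM in APAP and 431 to 543 CPM in Control, and the erythroid miR-451a was called lower in dmPGE2+APAP than in APAP (log2 -1.44, SE 0.25, edgeR adjusted p 0.00993). Between APAP and Control miR-451a stood at 0.97 (SE 0.24, edgeR adjusted p 0.0571). The other lists had 0 called rows in each comparison, and their sums overlapped between groups. The 4 myeloid rows summed to 449.9 to 552 CPM in dmPGE2+APAP, 377 to 669 CPM in APAP and 418 to 552 CPM in Control. Within them miR-223-3p, a neutrophil and monocyte miRNA chosen for mention after its values were seen, averaged 18.3 CPM over all libraries. Its log2 change was 1.03 for APAP against Control (SE 0.31, edgeR adjusted p 0.125) and -0.93 for dmPGE2+APAP against APAP (SE 0.32, edgeR adjusted p 0.326), with unadjusted p of 0.00453 and 0.0109. In the same comparisons miR-146a-5p (299 CPM) stood at -0.13 and 0.02, and miR-142a-5p (173 CPM) at 0.41 and -0.24. The last myeloid row, miR-142a-3p (16.3 CPM), stood at 0.44 and -0.86. The 2 endothelial rows summed to 8788 to 10174 CPM in dmPGE2+APAP, 7990 to 9434 CPM in APAP and 7437 to 9115 CPM in Control. The 5 mesenchymal and stellate rows (24543 to 41670 CPM), 5 cholangiocyte and epithelial rows (477 to 1008 CPM) and 3 lymphoid rows (16.6 to 37.9 CPM) are given over all libraries. The 3 muscle rows ranged most within Control, at 340 to 720 CPM in dmPGE2+APAP, 313 to 902 CPM in APAP and 481 to 2699 CPM in Control. All listed rows passed the filter on low counts. The part of these markers in the miR-122 and miR-802 values was not tested.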

How the data were processed

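Small RNAs of mouse liver were sequenced in 9 libraries, 3 per group. The submitters' processing notes name Bowtie and the mm10 build. Versions, the counting tool, the annotation and strandedness remain unstated (not given in the sources used here). In the deposited table are raw read counts per mature miRNA and TPM values, per the file headers. The Control columns carry a prefix that the labels do not use. Their counts were assigned to Control by elimination, and their number is only a name. The 3 Control TPM columns were not used.

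Counts were analysed with edgeR 4.0.16 in R 4.3.3: filterByExpr (minimum count 10, minimum total 15), TMM scaling, and the robust quasi-likelihood test on 3 group means over all 9 libraries, with Benjamini-Hochberg adjustment over 360 rows and a threshold of 0.05. Arm ratios, log2 of 5p over 3p counts with 0.5 added, were tested with limma 3.58.1 over 98 hairpins. DESeq2 1.42.0, limma-voom, limma on log2 of the deposited TPM plus 1 (dmPGE2+APAP against APAP only), other scalings and filters, thinning and the omission of single libraries were alternatives. Rows that repeat the reads of another row were counted once where stated. The fits were run on simulated data that held many more changed rows than were called here. The power to call the members cannot be read from those runs. RNAfold 2.7.2 gave the hairpin structure.

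The members and marker lists were chosen with earlier results of these data known. The named miRNAs are the members, the 5 nearest profiles to each 5p arm among rows of at least 100 CPM, neighbours in arm ratio, and listed markers that were called or hepatocyte-enriched.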

Additional observations from a re-analysis of the deposited data

How the results depend on the processing

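Members were called in 0 of 316 values under alternatives, and the lowest adjusted p was 0.303. The miR-802 arms were not tested at a mean of at least 10 CPM or after thinning, and their depth of 453 and 409 reads limits them. Signs turned against the main values in 22 of the 316, and the cause was not tested. Those that did not come from leaving out a library were as follows. With library totals, miR-802-3p was 0.17 (APAP against Control), and miR-122-5p 0.039 and miR-802-5p 0.026 (dmPGE2+APAP against Control). Thinned, miR-122-3p was -0.013 (dmPGE2+APAP against APAP), and the miR-122 arm ratio 0.016 (APAP against Control) and 0.095 (dmPGE2+APAP against Control).

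For APAP against Control, edgeR's 3 calls became 13 with DESeq2, 8 with library totals, 7 with upper-quartile scaling, with miR-122 left out of the scaling and with only the 2 groups, 9 without a filter, and 0 at 10 CPM or thinned. For dmPGE2+APAP against APAP, 1 call became 8 with DESeq2, 9 without a filter, 2 thinned and 0 with only the 2 groups or with TPM. For dmPGE2+APAP against Control, 1 became 2 with DESeq2, library totals, miR-122 left out of the scaling or no filter, and 0 at 10 CPM or thinned. Hairpin calls for APAP against Control (0) became 1 with a pseudocount of 1, 2 with 5, 1 at 50 reads and 1 with repeated rows left out, an alternative chosen after seeing the data. For dmPGE2+APAP against Control (1) they became 2 with a pseudocount of 1, 3 with 5, and 0 at 50 reads, without trend, with only the 2 groups, or thinned.

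Leaving out 1 library gave these ranges. For APAP against Control they were 0 to 9 calls, -0.46 to 0.021 for miR-122-5p, -0.43 to 0.017 for miR-122-3p, -0.10 to 0.24 for miR-802-5p, -0.30 to 0.12 for miR-802-3p, 0 to 1 hairpins, arm ratios of -0.44 to 0.21 (miR-122) and -0.12 to 0.55 (miR-802), a share difference of -2.39 to 1.78 points, and -0.67 to -0.22 for log2 miR-122-5p over miR-802-5p. For dmPGE2+APAP against APAP they were 0 to 5 calls, 0.017 to 0.18 for miR-122-5p, -0.051 to 0.14 for miR-122-3p, -0.46 to -0.063 for miR-802-5p, 0.096 to 1.00 for miR-802-3p, 0 hairpins, arm ratios of -0.013 to 0.12 (miR-122) and -1.26 to -0.18 (miR-802), 0.537 to 1.78 points for the share and 0.29 to 0.64 for log2 miR-122-5p over miR-802-5p. For dmPGE2+APAP against Control they were 1 to 2 calls, -0.36 to 0.16 for miR-122-5p, -0.34 to 0.066 for miR-122-3p, -0.36 to -0.017 for miR-802-5p, 0.025 to 0.90 for miR-802-3p, 0 to 3 hairpins, arm ratios of -0.38 to 0.27 (miR-122) and -1.08 to -8e-04 (miR-802), -1.21 to 2.95 points for the share and -0.25 to 0.26 for log2 miR-122-5p over miR-802-5p.

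Same-numbered dmPGE2+APAP and APAP libraries correlated at 0.169, -0.0925 and 0.120 in their deviations, so the numbers were not taken as pairs. With a replicate block on those 2 groups, chosen after seeing the data, 0 miRNAs and 1 hairpin were called. The TPM alternative was not run for the Control comparisons. No paired analysis was possible for the Control comparisons because the Control columns carry no number that matches the labels.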
